A study of Mus musculus with 9 samples.

Results

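The genes of translation initiation factors, those with a symbol of Eif1 to Eif6, were examined for chromatin accessibility in a mouse breast carcinoma line with a lowered Med1. A peak was taken when its centre lay inside such a protein-coding gene or within 1000 bases of either annotated end, and the Eif2ak kinase genes were left out. The annotation held 52 such genes, and 49 of them had at least 1 peak. No peak was assigned to Eif2s3y, Eif3j2 or Eif4e1b. These 49 genes held 125 of the 75936 deposited peaks. Of the 125, 61 were gene-end peaks, within 1000 bases of an annotated end of the gene, and 64 were gene-body peaks further inside. Of the 61 gene-end peaks, 18 also lay within 1000 bases of an end of another protein-coding gene, and their accessibility cannot be assigned to either gene.

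ATAC-seq inserts sequencing adapters into open DNA with a transposase, so a peak's count follows how accessible the DNA is. It was run on D2A1-d cells, a murine breast carcinoma line, in 9 libraries of 3 groups. The NTC group (n = 3) carried a non-targeting control hairpin and is labelled WT, while the shMed1 #2 group (n = 3) and the shMed1 #4 group (n = 3) carried 1 of 2 different hairpins against Med1 and are labelled Med1 Knockdown. Med1 encodes a subunit of Mediator, the coactivator complex between transcription factors and RNA polymerase II. All groups were transduced with a hairpin and grown with 10% FBS, with no other treatment or time point in the labels, and were tagmented for 1 h at 37 °C. The labels call the libraries biological replicates without describing the cultures, so p-values measure the spread between these samples only.

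Initiation factors bring the ribosome to the start codon. eIF1, eIF1A, eIF3 and eIF5 load onto the small subunit with the eIF2 complex, which delivers the initiator tRNA and is recharged with GTP by eIF2B. The cap-binding protein eIF4E, the scaffold eIF4G and the helicase eIF4A form eIF4F on the mRNA cap, and the eIF4E-binding proteins hold eIF4E back until mTORC1 phosphorylates them. Their genes are active in nearly every dividing cell, and growth signalling in tumours is known to converge on this step.

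The deposited values are read counts per peak divided by a size factor per library, called normalized counts here. Reads in peaks ran from 34.8 to 53.7 M per library, and a single initiation factor peak held 14 to 4678 reads in a library, with a median of 478. The Med1 gene-end peak, which cannot show the depletion because hairpins act on RNA, had 2066, 2141 and 2134 normalized counts in NTC, 2152, 2049 and 1869 with #2, and 2013, 1887 and 2014 with #4. The labelled epithelial origin was checked on 10 epithelial genes, of which 3 had a gene-end peak, with none at Cdh1, Epcam, Esrp1, Grhl2, Krt19, Krt5 and Krt8. The summed gene-end signal of those 3 was 1847 to 1924 in NTC, 2127 to 2191 with #2 and 2138 to 2196 with #4. Of 8 mesenchymal genes 7 had such a peak, summing to 16250 to 16480, 14790 to 15310 and 16140 to 16390 in the same order. Of 6 blood genes 4 had one, with none at Ptprc and Cd3e (1081 to 1168, 987.5 to 1088 and 949.5 to 1092), and of 5 endothelial genes 1 had one, with none at Pecam1, Kdr, Tek and Tie1 (166.5 to 193.4, 142.9 to 193.5 and 131.4 to 165.9). The epithelial sum was higher in every hairpin library than in NTC through a rise at Elf3 (0.34), while 1 of 2 Krt18 peaks (-0.53) and 1 of 2 Krt14 peaks (-0.48) fell, so that of 5 epithelial gene ends 1 rose and 2 fell. The mesenchymal sum was lower in every #2 library, the endothelial sum was lower in every #4 library, and the blood sums overlapped. Their part in the results below was not tested. In bulk cells, a lower count cannot tell fewer cells with an open site from less opening per cell.

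Upstream sequences are shown for 6 genes, chosen after the values were seen: 4 whose start-site peak was among the most lowered (Eif4b, Eif4enif1, Eif4a3 and Eif4g3) and the only 2 whose start-site peak was higher (Eif1ax and Eif5b). Each line is the 250 bases before the annotated start, 5′ to 3′ on the gene's strand, from RefSeq on GRCm38.p6. They lie at chr15:102073523-102073772 (+), chr11:3202103-3202352 (+), chr11:119300044-119300293 (-), chr4:137993205-137993454 (+), chrX:159371928-159372177 (+) and chr1:37997760-37998009 (+), in the order of the lines. Capitals mark matches to the motifs searched on both strands.
Eif4b: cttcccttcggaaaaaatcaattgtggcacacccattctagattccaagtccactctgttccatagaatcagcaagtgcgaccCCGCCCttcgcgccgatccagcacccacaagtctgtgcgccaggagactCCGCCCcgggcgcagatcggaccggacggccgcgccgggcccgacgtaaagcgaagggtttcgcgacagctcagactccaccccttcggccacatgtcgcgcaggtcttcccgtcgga
Eif4enif1: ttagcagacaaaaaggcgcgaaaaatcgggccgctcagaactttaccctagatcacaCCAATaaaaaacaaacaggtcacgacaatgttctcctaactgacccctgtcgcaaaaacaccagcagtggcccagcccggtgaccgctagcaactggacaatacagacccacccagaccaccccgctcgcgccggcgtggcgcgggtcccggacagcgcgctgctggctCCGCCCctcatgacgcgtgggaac
Eif4a3: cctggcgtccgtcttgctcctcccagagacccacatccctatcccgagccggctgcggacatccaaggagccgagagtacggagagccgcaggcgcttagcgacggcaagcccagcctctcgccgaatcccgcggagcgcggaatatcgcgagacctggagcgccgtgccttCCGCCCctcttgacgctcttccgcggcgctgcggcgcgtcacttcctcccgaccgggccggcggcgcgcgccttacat
Eif4g3: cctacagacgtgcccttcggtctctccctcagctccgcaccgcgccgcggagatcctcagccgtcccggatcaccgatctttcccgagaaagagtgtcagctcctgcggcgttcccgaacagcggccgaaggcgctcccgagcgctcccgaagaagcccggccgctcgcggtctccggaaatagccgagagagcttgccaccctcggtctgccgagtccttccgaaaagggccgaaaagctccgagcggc
Eif1ax: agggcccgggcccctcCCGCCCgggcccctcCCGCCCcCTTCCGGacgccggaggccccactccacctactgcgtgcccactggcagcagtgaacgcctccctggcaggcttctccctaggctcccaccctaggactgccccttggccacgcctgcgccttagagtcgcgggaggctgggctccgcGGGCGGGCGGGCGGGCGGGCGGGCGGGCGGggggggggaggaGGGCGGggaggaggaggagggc
Eif5b: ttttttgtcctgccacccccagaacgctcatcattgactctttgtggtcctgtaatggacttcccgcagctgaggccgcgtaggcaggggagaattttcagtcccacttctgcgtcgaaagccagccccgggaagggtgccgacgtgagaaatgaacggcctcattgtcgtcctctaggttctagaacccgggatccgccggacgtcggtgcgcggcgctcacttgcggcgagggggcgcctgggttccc
The capitals in Eif4b, Eif4a3 and most of Eif1ax are GC boxes (GGGCGG or its reverse complement CCGCCC). In Eif4enif1 they are 1 NF-Y core (CCAAT) and 1 GC box, and Eif1ax also holds 1 ETS core (CCGGAAG, here as CTTCCGG). Eif1ax had 10 GC boxes, of which 7 overlap in a single run 40 to 64 bases before the start, whereas Eif4g3 and Eif5b had no match to any motif searched. The Eif4b, Eif4enif1, Eif4g3 and Eif1ax windows overlap their peaks. The Eif4a3 peak lies inside the gene and the Eif5b peak further upstream, so neither of those windows is covered by its peak.

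In windows of 300 bases, from 250 before the start to 50 after it, the GC box was present in 30 of the 40 initiation factor genes with a promoter entry, 75.0%, against 46.3% of 17492 genes. The ETS core was in 13 of the 40 (32.5% against 11.9%), and the E-box CACGTG in 8 (20.0% against 7.9%). NF-Y cores were in 12 (30.0% against 39.0%), the AP-1 letters TGANTCA in 4 (10.0% against 7.08%), the YY1 core AAGATGG in 5 (12.5% against 6.37%), the NRF1 core GCGCATGC in 3 (7.5% against 3.61%) and TATAAA in 4 (10.0% against 13.3%). None of the 40 held the cAMP response element TGACGTCA, found in 2.34% of all genes, or the ATF4 letters TGATGCAA, found in 0.909%. The median GC content was 59.0% against 55.2%. The initiation factor genes were also split by the call of their strongest start-site peak. A GC box was held by 14 of 20 where that peak was lowered and by 15 of 19 where it was not. The E-box was in 3 of 20 and 5 of 19. These letters are a description of the windows and not of bound factors. No promoter entry was found for Eif1a, Eif2b3, Eif3e, Eif3h, Eif3i, Eif3j2, Eif4e1b, Eif4e3, Eif4ebp1, Eif4ebp3, Eif4g2 and Eif6.

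At the ends of initiation factor genes accessibility was more often lower than higher with the Med1 hairpins. Taking the mean of both hairpins against NTC, 34 of the 125 peaks fell and 21 rose at a limma p, adjusted by Benjamini-Hochberg over all 75930 peaks tested, under 0.05. Of all peaks tested, 39.8% were called, 17.7% lower and 22.1% higher. Among the 61 gene-end peaks 26 fell and 6 rose, which is 42.6% and 9.84% of them, against 32.7% and 14.3% of all 12224 gene-end peaks tested. Their median log2 fold change was -0.12, against -0.07 for all gene-end peaks. Among the 64 gene-body peaks 8 fell and 15 rose, against 13.9% lower and 24.3% higher of all gene-body peaks, with a median of 0.00 against 0.02. All 6 hairpin libraries were below all 3 NTC libraries at 26 of the 125 peaks and above them at 13, against 12.3% and 15.0% of all peaks. Falls were thus the larger part of the calls at gene ends and rises within gene bodies, the same order as for all gene ends and gene bodies.

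The split between lower and higher moved with the scaling. With all libraries set to equal totals, 54 of the 125 peaks were lower and 13 higher, against 27.7% and 15.9% of all peaks. The gene-body peaks turned to 15 lower and 9 higher under equal totals. That scaling moved the median of all peaks from -0.01 to -0.09. With quantile scaling and cyclic loess the gene-end peaks split 38 lower to 4 higher in both, where 47.7% and 46.8% of all gene ends were lower and 7.4% and 7.8% higher, while gene-body peaks stayed at 7 lower to 13 and 14 higher. Of the 34 lowered peaks, 33 were also called lower under each of these 3 scalings, and of the 21 raised peaks 12 were called higher under each. The fall that was lost is at the second Eif2b3 peak. Of the 29 gene-end peaks not called, 11 were called lower under each of the 3 scalings, and none higher. Lower calls at all gene ends also went up, from 32.7% to 49.0% with equal totals, 47.7% with quantile scaling and 46.8% with cyclic loess. Without each single library in turn, 26 of the 34 falls and 13 of the 21 rises stayed called in every fit. Of the 8 falls and 8 rises that did not, those described below are given with the libraries concerned. The others were the fall at the second Eif2d peak and rises at single peaks of Eif2d, Eif3b, Eif3l, Eif4b, Eif4e3 and Eif6, with adjusted p of up to 0.0597 to 0.276 without 1 library.

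**Figure D1:**
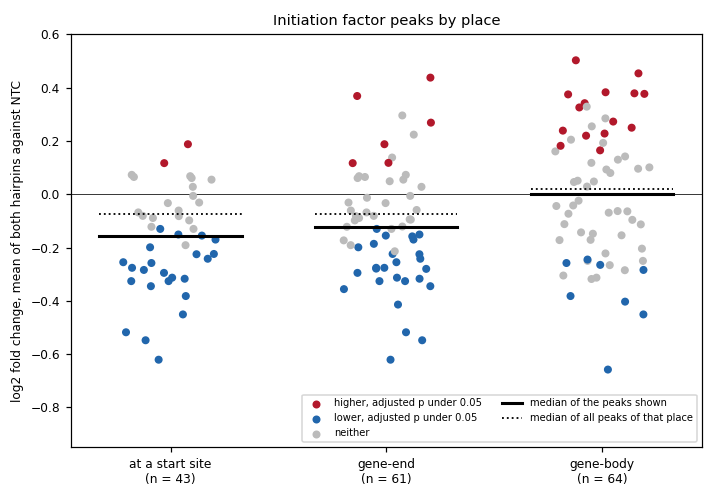
Log2 fold change of the initiation factor peaks in the mean of both hairpins against NTC (y axis) for 43 peaks at a start site, 61 gene-end and 64 gene-body peaks, 1 point per peak, with the median of the points (solid line) and of all peaks of the same place (dotted line). Start-site peaks lie mostly below 0 with a median of -0.16, and gene-body peaks spread around 0.

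Start sites could be told from the other end in 40 genes with a promoter entry, and 39 of these had 43 peaks within 1000 bases of their own start. Of the 43, 23 fell and 2 rose, 53.5% lower against 35.0% of the 9244 peaks at any protein-coding start site, with a median of -0.16 against -0.07. All 6 hairpin libraries were below all 3 NTC libraries at 21 of the 43 peaks and above them at 1, whereas 25.3% and 11.2% of all start-site peaks did so. With #2 alone 22 fell and 2 rose (38.6% and 11.6% of all start-site peaks), and with #4 alone 23 and 2 (23.9% and 15.4%). In the mean, 14.7% of all start-site peaks were higher. The share of lower calls among the 43 was above the background, and no test of that difference was made. At the 10 peaks on the far end of a gene 1 fell and 3 rose. The shares at the far ends of all genes were not worked out, so these counts have no background.

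Each hairpin alone was also set against NTC, with the same NTC libraries in both comparisons. With #2, 33 peaks fell and 20 rose, against 19.5% and 23.6% of all peaks. With #4, 31 fell and 20 rose, against 12.1% and 17.3%. At gene ends 26 fell and 5 rose with #2 (35.4% and 12.0% of all gene ends), and 24 fell and 5 rose with #4 (22.5% and 14.3%). In gene bodies 7 fell and 15 rose with #2 (15.3% and 25.7% of all gene-body peaks), and likewise 7 and 15 with #4 (9.34% and 19.1%). The same direction was called with both hairpins at 25 lowered and 12 raised peaks, and no peak was called in opposite directions. Those are 20.0%, 9.6% and 0% of the 125, against 7.78%, 12.3% and 0.757% of all peaks, in comparisons that share their controls. The 20 rises with #4 went down to 12 without NTC replicate 2 and to 12 without NTC replicate 3.

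By gene, 18 of the 49 had only lowered peaks among those called, 6 only raised peaks, 10 both, and 15 no called peak. No such count by gene was made over all genes, so whether these numbers are particular to initiation factors was not tested. The 15 included Eif4g1, Eif4a1 and Eif4e2 of the cap-binding complex and its relatives, and Eif2s1, the alpha subunit of eIF2 that the stress kinases phosphorylate. Under each of the 3 other scalings the end of Eif4a1 that holds its strongest peak (-0.11 to -0.21, shared with another gene) and the start of Eif4g1 (-0.15 to -0.17) were called lower. In the sections that follow each value is a normalized count per peak. All peaks are 501 bases wide, so levels do not differ through peak width, but other differences between loci were not corrected. The counts by role stand beside 32.7% lower and 14.3% higher of all gene ends, and 35.0% and 14.7% of all start-site peaks. The role groups are small, and their difference from these shares was not tested.

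**Figure D2:**
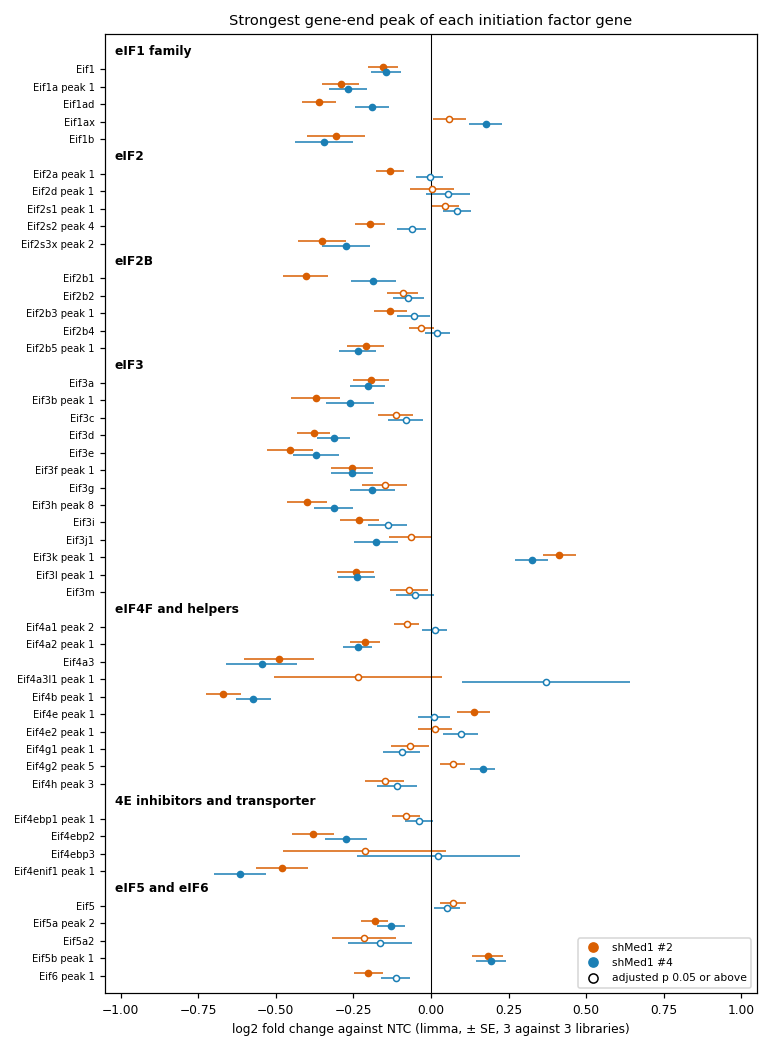
Log2 fold change against NTC (x axis, limma ± SE, 3 against 3 libraries) of the strongest gene-end peak of each of 47 genes, grouped by role, for shMed1 #2 and shMed1 #4; open points have an adjusted p of 0.05 or above. Eif4b lies furthest to the left with #2 at -0.67, and Eif3k, whose peak is at the far end of the gene, furthest to the right with #2 at 0.41.

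The eIF1 family scans for and recognises the start codon. Of its 5 gene-end peaks 4 fell and 1 rose. Eif1 (chromosome 11, 100320128 to 100320629), the start codon fidelity factor, had its start-site peak at 2738, 2787 and 2923 in NTC, 2440, 2405 and 2748 with #2, and 2634, 2532 and 2468 with #4. The groups overlapped only through #2 replicate 3, and in the mean of both hairpins the peak fell by 0.15 ± 0.04 (log2, SE, adjusted p = 0.00322, and 0.0507 without NTC replicate 3). Its paralogue Eif1b (chromosome 9, 120492436 to 120492937) had a weaker peak, 483.5, 482.1 and 548.1 in NTC against 470.0, 372.0 and 385.9 with #2 and 448.6, 365.3 and 379.5 with #4, and all hairpin libraries were below NTC (-0.33 ± 0.08, adjusted p = 0.0011). Eif1a (-0.28) and Eif1ad (-0.28), related to eIF1A, also fell, both at ends shared with a neighbour (Tmed7 and Banf1).

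Eif1ax, the X-linked gene of eIF1A itself, moved the other way. Its start-site peak (chromosome X, 159371668 to 159372169) held 1488, 1389 and 1498 in NTC, 1466, 1513 and 1576 with #2, and 1610, 1660 and 1669 with #4. The #4 libraries were all above NTC and those with #2 overlapped it. The rise of 0.12 ± 0.05 (adjusted p = 0.0416) was lost without any 1 of 7 libraries, with an adjusted p of up to 0.272, and was not called under any of the 3 other scalings, where it was 0.03 to 0.06.

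The eIF2 complex carries the initiator tRNA. Eif2a, a separate tRNA-binding factor despite its name, had the strongest peak of this group at a start shared with Serp1 (chromosome 3, 58525683 to 58526184), with 3532, 3570 and 3661 in NTC, 3574, 3099 and 3169 with #2, and 3513, 3617 and 3600 with #4. A pair of #2 libraries was below the rest, so the peak fell with #2 (-0.13, adjusted p = 0.0134, lost without NTC replicate 3, #2 replicate 2 or #2 replicate 3, up to 0.14) and was at -0.00 with #4 (adjusted p = 0.954). With #4 it was called lower under quantile scaling (-0.19) and cyclic loess (-0.15), and in the mean under each of the 3 other scalings. Among the true subunits, the start-site peaks of Eif2s2 (beta, -0.13, adjusted p = 0.00887, and 0.0626 without NTC replicate 3) and Eif2s3x (gamma, -0.31, adjusted p = 0.000203) fell. That of Eif2s1 was 0.07 ± 0.04 (adjusted p = 0.171).

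A weak peak inside Eif2s3x (chromosome X, 94193884 to 94194385) had the largest fall of all 125, with 112.8, 108.8 and 141.3 in NTC, 76.43, 80.62 and 60.76 with #2, and 73.75, 66.31 and 103.5 with #4. All hairpin libraries were below NTC, and it was 0.63-fold of NTC (log2 -0.66 ± 0.16, adjusted p = 0.000842).

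eIF2B recharges eIF2 with GTP and is the target of the stress response that blocks initiation. Of its 6 gene-end peaks 3 fell and none rose: the start-site peaks of Eif2b1 (alpha, -0.30, adjusted p = 0.000175, shared with Gtf2h3) and Eif2b5 (the catalytic epsilon subunit, -0.22, adjusted p = 0.00051), and the far-end peak of Eif2b5 (-0.28, adjusted p = 0.0227, lost without NTC replicate 1, NTC replicate 3 or #2 replicate 3, up to 0.14). The strongest, Eif2b4 (delta subunit, chromosome 5, 31192865 to 31193366, shared with Snx17), held 3262, 3248 and 3309 in NTC, 3219, 3269 and 3126 with #2 and 3351, 3388 and 3216 with #4. The groups overlapped, and its change was -0.01 ± 0.04 (adjusted p = 0.918). In the mean it was called lower under each of the 3 other scalings, at -0.08 with equal totals, -0.17 with quantile scaling and -0.13 with cyclic loess. With #4 alone it was 0.02 as scaled by the authors and turned to -0.15 and -0.12 under quantile scaling and cyclic loess.

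The gene of the gamma subunit, Eif2b3, showed rises inside the gene. Its end was at -0.09 (adjusted p = 0.101) and was called lower under each of the 3 other scalings. Its peak at 117056621 to 117057122 on chromosome 4 held 890.8, 905.2 and 852.9 in NTC, 1217, 1174 and 1232 with #2, and 1005, 1087 and 1184 with #4. That at 117071091 to 117071592 held 647.3, 550.3 and 515.8 in NTC, 770.5, 767.0 and 748.0 with #2, and 684.2, 737.0 and 733.3 with #4. At both, no hairpin library reached down to NTC, with rises of 0.38 ± 0.06 (adjusted p = 2.12e-07) and 0.38 ± 0.07 (adjusted p = 6.99e-06), and both were called higher under each scaling. Another peak of the gene body, weak at 101.5 in NTC, fell (-0.40, adjusted p = 0.0352), and this was lost without any 1 of NTC replicates 1 to 3, #2 replicate 2 or #4 replicate 3, with an adjusted p of up to 0.112.

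eIF3 is the large scaffold on the small ribosomal subunit, and 13 of its genes had a peak. Of 16 gene-end peaks 9 fell and 2 rose, against 32.7% and 14.3% of all gene ends. Their median log2 fold change was -0.18, against -0.07 for all gene ends. Those lowered were Eif3a, Eif3b, Eif3e, Eif3f, Eif3g, Eif3h, Eif3i and Eif3l, and Eif3d, the subunit that can bind the mRNA cap. The falls at Eif3g (-0.17) and Eif3i (-0.19, at an end shared with Tmem234) were lost without NTC replicate 3, with adjusted p of up to 0.0836 and 0.064, and that at Eif3g also without NTC replicate 1, NTC replicate 2 or #2 replicate 3. The ends of Eif3c, Eif3j1 and Eif3m were not called in the mean, at -0.10, -0.12 and -0.06. Eif3c (-0.16 to -0.18) and Eif3j1 (-0.18 to -0.20) were called lower under each of the 3 other scalings, and Eif3m (-0.14) with equal totals and cyclic loess.

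Eif3e (chromosome 15, 43282427 to 43282928) had 950.8, 1155 and 1145 in NTC, 885.6, 765.9 and 718.4 with #2, and 840.9, 784.5 and 878.0 with #4. It fell without overlap to 0.75-fold (-0.41 ± 0.06, adjusted p = 7.99e-07). Eif3d (chromosome 15, 77970766 to 77971267) had 2083, 2391 and 2354 in NTC, 1842, 1711 and 1695 with #2, and 1864, 1867 and 1758 with #4, and fell to 0.79-fold without overlap (-0.35 ± 0.05, adjusted p = 2.89e-08). The fall at the end of Eif3h, of -0.36, is described along its gene. The falls at Eif3b, Eif3f and Eif3l were -0.32, -0.26 and -0.24, each with every hairpin library below NTC, and Eif3a was at -0.20 with overlap.

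Eif3k encodes a small subunit that is absent from some eukaryotes. The peak at its far end (chromosome 7, 28971845 to 28972346) held 1965, 1811 and 1814 in NTC, 2258, 2464 and 2744 with #2, and 2408, 2361 and 2228 with #4. The groups did not overlap, a rise to 1.29-fold (0.37 ± 0.05, adjusted p = 7.2e-09) that was also called under each scaling. The start-site peak of Eif3k, shared with Map4k1, was at -0.09 (adjusted p = 0.214) and was called lower under each of the 3 other scalings (-0.15 to -0.17). The other raised end, also on the far side of its gene, was that of Eif3f (0.27, adjusted p = 0.000183).

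Within Eif3h the end and the body moved apart. Its end peak (chromosome 15, 51865230 to 51865731) had 1350, 1439 and 1372 in NTC, 1190, 984.7 and 991.9 with #2, and 1102, 1160 and 1084 with #4, a fall of 0.36 on the log2 scale (SE 0.06, adjusted p = 7.69e-07). A strong peak inside the gene at 51853510 to 51854011 had 3100, 3084 and 2879 in NTC, 3732, 3711 and 3841 with #2, and 3962, 4063 and 3668 with #4. It rose without overlap to 1.27-fold (0.34 ± 0.04, adjusted p = 1.36e-10). The peak at 51823040 to 51823541 rose as well (0.33, adjusted p = 2.53e-05), at 0.46 with #2 and 0.19 with #4, the latter lost without NTC replicate 2 or 3 or #4 replicate 2 or 3 (adjusted p of up to 0.17), and under each of the 3 other scalings (0.12 to 0.16). At 51798738 to 51799239 the hairpins differed: 648.2, 651.7 and 606.6 in NTC, 413.8, 429.6 and 451.6 with #2, and 561.3, 686.9 and 704.4 with #4, so that all #2 libraries lay below NTC while #4 overlapped it, and the difference of #4 from #2 was 0.59 ± 0.08 (adjusted p = 2.62e-07).

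The eIF4F group unwinds and scans the mRNA from its cap. Of its 16 gene-end peaks 3 fell and 2 rose, and of its 12 start-site peaks, some of which lie further than 1000 bases inside the annotated gene, 6 fell and none rose. The falls were at Eif4b, Eif4a3, Eif4a2, Eif4e and, with 2 peaks, Eif4g3. Eif4b, which stimulates the eIF4A helicase, had the largest fall of any gene-end peak. Its start-site peak (chromosome 15, 102073426 to 102073927, centred at -96 bases from the start) held 1990, 2281 and 2300 in NTC, 1463, 1299 and 1363 with #2, and 1441, 1529 and 1440 with #4. The highest hairpin library, at 1529, was below the lowest of NTC, at 1990, and the peak was 0.65-fold of NTC (-0.62 ± 0.05, adjusted p = 1.45e-14), with -0.67 for #2 and -0.57 for #4. It overlaps the printed Eif4b window with its 2 GC boxes.

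Eif4a3, the helicase of the exon junction complex, had a weaker peak inside the gene near its start (chromosome 11, 119299404 to 119299905), with 264.1, 260.9 and 297.8 in NTC, 208.2, 182.0 and 194.6 with #2, and 176.2, 201.4 and 184.7 with #4. It fell to 0.70-fold with no overlap (-0.52 ± 0.10, adjusted p = 3.23e-05). Eif4a2, a helicase of eIF4F, fell at its start (-0.23, adjusted p = 2.15e-05) and rose at its far end, shared with Rfc4 (0.44, adjusted p = 0.000386). The far-end rise was not called with #4 alone, and the difference of #4 from #2 there was -0.386. The helicase Eif4a1, with 3553, 3675 and 3740 in NTC, 3452, 3456 and 3473 with #2, and 3784, 3734 and 3544 with #4, had the highest NTC level of the 47 genes with a gene-end peak and was at -0.03 ± 0.04 (adjusted p = 0.469). That peak also lies at an end of another gene, so its level cannot be assigned to Eif4a1 alone. Eif4a3l1, an Eif4a3-like gene, had a peak of 54.22 ± 24.8 (SD, n = 3) in NTC and was not called. No source used here says how reads shared by near-identical gene copies were counted.

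The cap-binding gene Eif4e had 2 peaks near its start that differed in call. The one at the end of the gene held 1800, 1769 and 1703 in NTC, 1984, 1933 and 1880 with #2, and 1871, 1750 and 1687 with #4. It was above NTC in all #2 libraries, but at 0.07 ± 0.05 in the mean (adjusted p = 0.195). The one further in (chromosome 3, 138527763 to 138528264) held 641.9, 624.0 and 662.1 in NTC, 612.3, 483.7 and 467.2 with #2, and 482.4, 503.0 and 427.3 with #4, and fell to 0.77-fold (-0.38 ± 0.08, adjusted p = 5.2e-05).

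The scaffold genes differed among themselves. At Eif4g1 the start-site peak was at -0.08 ± 0.05 (adjusted p = 0.214), with 1639, 1845 and 1747 in NTC, 1888, 1616 and 1503 with #2, and 1603, 1612 and 1684 with #4, and the groups overlapped. Eif4g2, a cap-independent relative of eIF4G, had the highest mean over all 9 libraries (chromosome 7, 111082808 to 111083309), with 3761, 3572 and 3544 in NTC, 3863, 3752 and 3797 with #2, and 4219, 3963 and 4032 with #4. Its rise of 0.12 ± 0.03 (adjusted p = 0.00536, and 0.0521 without NTC replicate 3) turned to -0.06 under quantile scaling and -0.02 under cyclic loess. A weak peak inside Eif4g2 (chromosome 7, 111069767 to 111070268) held 78.79, 80.19 and 71.67 in NTC, 110.7, 120.9 and 113.3 with #2, and 113.7, 96.34 and 102.4 with #4, and rose to 1.42-fold with no overlap (0.50 ± 0.14, adjusted p = 0.00372).

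Eif4g3, the paralogue of Eif4g1, showed falls at its start and rises far inside. The start-site peak (chromosome 4, 137993105 to 137993606, -100 bases from the start) held 1155, 1269 and 1269 in NTC, 992.8, 800.4 and 776.7 with #2, and 924.9, 904.6 and 1026 with #4, and fell to 0.73-fold with no overlap (-0.45 ± 0.06, adjusted p = 5.68e-08). The peak beside it fell too (-0.26, adjusted p = 0.0135, and 0.0922 without NTC replicate 3). At 138042116 to 138042617, deep in the gene, the counts were 1441, 1313 and 1306 in NTC, 2083, 2164 and 2191 with #2, and 1727, 1602 and 1478 with #4. Every hairpin library exceeded NTC there (0.45 ± 0.05, adjusted p = 9.26e-11), and the rise was larger with #2 (0.67) than with #4 (0.24), a difference of -0.42 ± 0.06 (adjusted p = 7.19e-08). A further peak at 138077843 to 138078344, with 764.6, 741.1 and 753.0 in NTC, 838.1, 983.6 and 1067 with #2, and 968.9, 994.7 and 1022 with #4, rose by alike amounts with both (0.35 and 0.40).

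**Figure D3:**
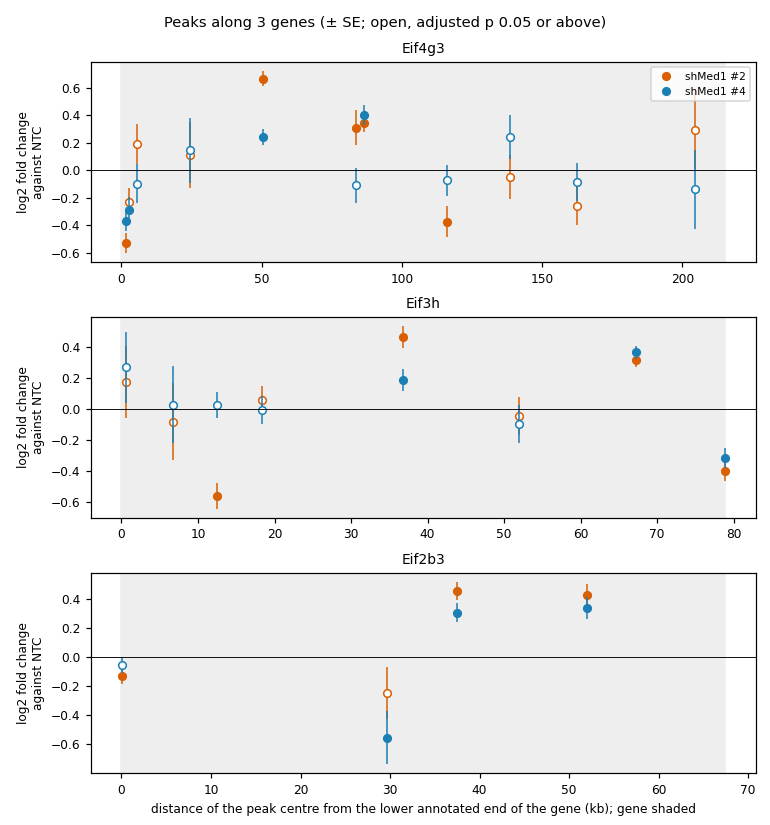
Log2 fold change against NTC (y axis, limma ± SE) of each peak of Eif4g3, Eif3h and Eif2b3 by the distance of its centre from the lower annotated end of the gene in kb (x axis), for shMed1 #2 and shMed1 #4; open points have an adjusted p of 0.05 or above and the shaded span is the gene. In Eif4g3 the start-site peak is at -0.53 and -0.37 while a peak deep in the gene is at 0.67 and 0.24.

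The eIF4E-binding proteins repress eIF4E, and the transporter encoded by Eif4enif1 carries it into the nucleus. Of their 5 gene-end peaks 2 fell and none rose. The Eif4enif1 start-site peak (chromosome 11, 3202055 to 3202556, shared with Gm51877) held 936.5, 1102 and 1180 in NTC, 868.0, 756.7 and 681.5 with #2, and 807.1, 598.1 and 700.0 with #4. It fell to 0.68-fold with no overlap (-0.55 ± 0.07, adjusted p = 2.67e-08). Eif4ebp2 fell as well, from 975.9, 1106 and 1139 in NTC to 846.0, 813.1 and 810.4 with #2 and 822.5, 902.1 and 938.1 with #4 (-0.33 ± 0.06, adjusted p = 1.23e-05).

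Eif4ebp1, the best-known repressor of the family, had a strong end peak (chromosome 8, 27261006 to 27261507) of 3053, 3037 and 3162 in NTC, 3067, 2825 and 2864 with #2, and 3153, 2890 and 2970 with #4, with overlap and a change of -0.06 ± 0.04 (adjusted p = 0.222). It was called lower under each of the 3 other scalings (-0.14 to -0.21). A peak inside the gene at 27265518 to 27266019 held 1343, 1250 and 1245 in NTC, 1644, 1514 and 1547 with #2, and 1486, 1398 and 1407 with #4. Every hairpin library was above NTC there, a rise to 1.17-fold (0.23 ± 0.05, adjusted p = 0.000177). Eif4ebp3 had a weak peak of 49.95 ± 11.1 (SD, n = 3) in NTC and was not called. The faintest of the 125 peaks, inside Eif2a and Eif4enif1, held 12.30 to 49.52 and 25.61 to 45.42 per library and were not called.

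**Figure D4:**
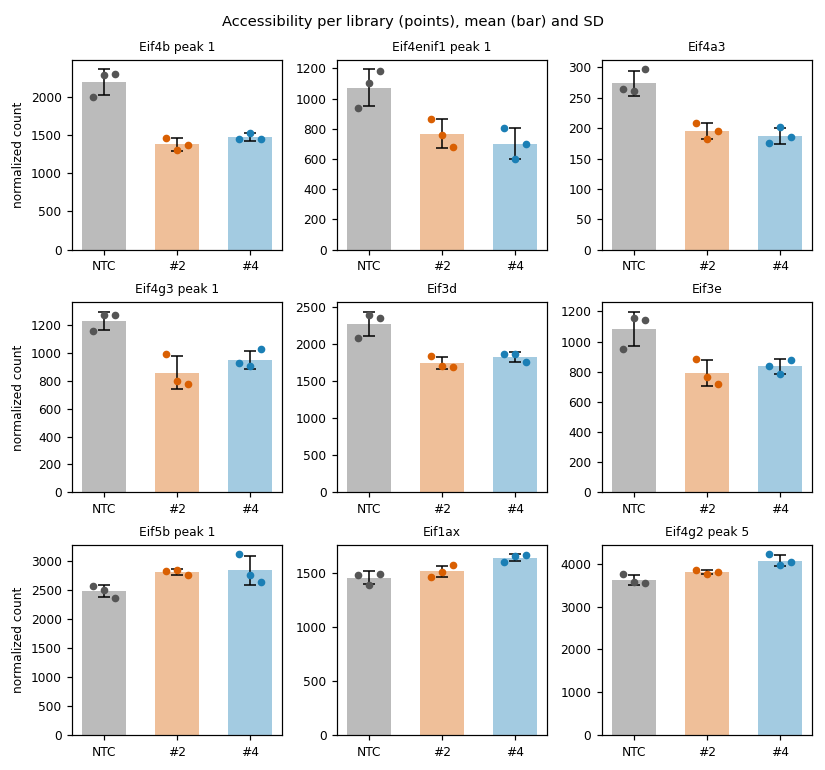
Normalized counts (y axis, from 0) of 9 peaks in each library (points) with the group mean (bar) and SD (error bar, n = 3) for NTC, shMed1 #2 and shMed1 #4. The upper 6 peaks lie below NTC in all hairpin libraries, while Eif5b lies above NTC in all and Eif1ax and Eif4g2 overlap NTC with #2.

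The last factors act when the subunits join. Of their 7 gene-end peaks 3 fell and 1 rose. Eif5, the GTPase activator of eIF2, had a strong start-site peak (chromosome 12, 111537778 to 111538279) of 3594, 3432 and 3486 in NTC, 3888, 3555 and 3602 with #2, and 3738, 3635 and 3519 with #4. The groups overlapped at 0.06 ± 0.04 (adjusted p = 0.18), and the change turned to -0.11 under quantile scaling. Eif5b, the GTPase of subunit joining, rose at its start, which it shares with Txndc9 (chromosome 1, 37997067 to 37997568), from 2567, 2499 and 2365 in NTC to 2833, 2839 and 2754 with #2 and 3114, 2763 and 2636 with #4. All hairpin libraries were above NTC (0.19 ± 0.04, adjusted p = 0.000351), while quantile scaling and cyclic loess gave 0.07 with no call. A peak inside Eif5b (38038912 to 38039413) held 292.8, 302.3 and 313.9 in NTC, 392.7, 415.8 and 395.8 with #2, and 397.4, 404.1 and 367.2 with #4, and rose to 1.30-fold (0.38 ± 0.08, adjusted p = 9.84e-05).

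Eif5a, the hypusinated elongation factor, fell at both peaks near its start, by 0.16 (adjusted p = 0.00101) and 0.28 (adjusted p = 7.57e-05) on the log2 scale. The end of its paralogue Eif5a2 was at -0.19 ± 0.09 (adjusted p = 0.0823). Eif6, which keeps the large subunit from joining too early, fell at both ends (-0.16 and -0.28). Its gene-body peak held 786.1, 810.2 and 810.5 in NTC, 1018, 1117 and 1085 with #2, and 747.7, 863.3 and 714.4 with #4, so all #2 libraries stood above NTC while #4 overlapped it.

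Both hairpins were compared directly as well. In shMed1 #4 against #2, 9 of the 125 peaks were higher and 10 lower, against 8.48% and 13.0% of all peaks. Either way, 21.5% of all peaks differed. At gene ends 4 were higher and 3 lower (11.5% and 3.69% of all gene ends), and in gene bodies 5 and 7 (7.94% and 13.5% of all gene-body peaks). Without each single library in turn, 1 of the 9 higher and 7 of the 10 lower stayed called in every fit. The largest differences were at weak body peaks of Eif4e (-0.71) and Eif4h (-0.71), where all #2 libraries were above NTC and #4 overlapped it, and at the Eif3h peak above. The 9 higher calls went down to 3, 4, 3 and 5 without #2 replicate 2, #2 replicate 3, #4 replicate 2 and #4 replicate 3.

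**Figure D5:**
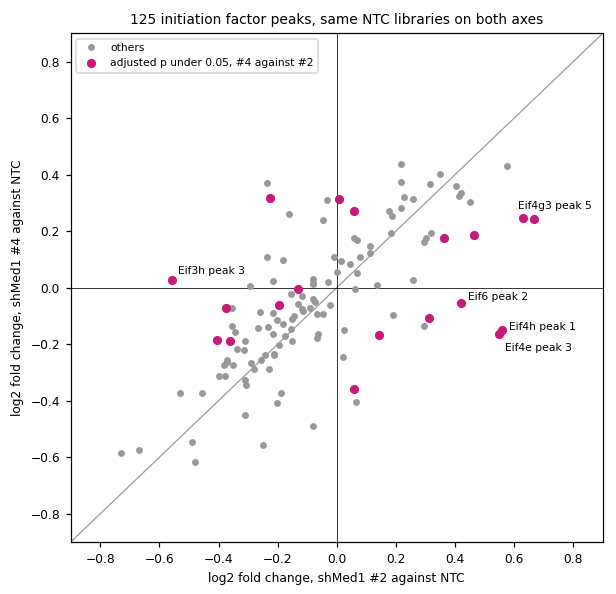
Log2 fold change of the 125 peaks with shMed1 #2 (x axis) and shMed1 #4 (y axis), each against the same 3 NTC libraries, with the 19 peaks that differed between the hairpins in pink and the line of equal change. Eif3h peak 3 lies left of 0 with #2 only, and the peaks of Eif4e, Eif4h and Eif6 lie right of 0 with #2 only.

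Genes that act on the same step were described with 4 lists. Of 24 peaks of the eIF2 kinases and the stress response they start, 8 fell and 4 rose in the mean of both hairpins (median -0.10), against the 17.7% and 22.1% of all peaks. At their 15 gene ends 4 fell and 3 rose, against 32.7% and 14.3% of all gene ends. The end of Eif2ak4, the kinase that senses uncharged tRNA, held 2142, 2420 and 2328 in NTC, 1793, 1620 and 1636 with #2, and 1805, 1825 and 1844 with #4 (-0.39 ± 0.05, adjusted p = 1.03e-09). That of Eif2ak3, the kinase of the endoplasmic reticulum, held 4120, 3926 and 3988 in NTC, 4611, 4338 and 4201 with #2, and 4795, 4768 and 4686 with #4 (0.19 ± 0.03, adjusted p = 1.49e-05). The fall at Eif2ak4 was called under each scaling, whereas Eif2ak3 was not called with cyclic loess (0.042) and turned to -0.013 with quantile scaling. The ends of the other kinases were at -0.14 (Eif2ak1, adjusted p = 0.0244) and -0.11 (Eif2ak2, adjusted p = 0.0508).

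Of 110 peaks of mTORC1 and eIF4E control genes 15 fell and 32 rose (median 0.06). At their 20 gene ends 9 fell and 2 rose. Beside this and the lists below stand 17.7% lower and 22.1% higher of all peaks, and 32.7% and 14.3% of all gene ends. Among the 20 ends, Mlst8, a subunit of mTORC1, and Rheb, its activator, fell by 0.30 (adjusted p = 3.11e-07) and 0.23 (adjusted p = 4.94e-05) on the log2 scale. Other lowered ends included those of Tbc1d7 (-0.39, adjusted p = 5.25e-07), Tsc1 (-0.28, adjusted p = 0.000177) and Deptor (-0.20, adjusted p = 0.000509). The 2 raised ends were at Rptor (0.48, adjusted p = 4.77e-05) and Mknk2 (0.17, adjusted p = 0.00229). That at Rptor was called under each of the 3 other scalings, and that at Mknk2 under none. Another end peak of Rptor fell (-0.19, adjusted p = 0.00704). End peaks of Mknk2 also fell (-0.17, adjusted p = 0.0432, and -0.13, adjusted p = 0.0116). Of 36 peaks of initiation partners and recycling factors 13 fell and 4 rose (median -0.09), with 7 and 3 at their 18 ends, among them the start of the poly(A)-binding protein gene Pabpc1 (-0.24, adjusted p = 5.82e-06) and of Abce1, which splits ribosomes for reuse (-0.20, adjusted p = 0.000327). Dhps, the enzyme that modifies eIF5A, fell at 1 end (-0.29, adjusted p = 5.91e-07). The 3 rises at ends of this list were larger at Ddx3x (0.85, adjusted p = 0.000255, and 0.75, adjusted p = 0.0261) than at Paip1 (0.14, adjusted p = 0.0313). Those at Ddx3x were called under each of the 3 other scalings, and that at Paip1 under none. Another end peak of Ddx3x fell (-0.215, adjusted p = 0.00187), and that fall was called under each scaling. Of 26 peaks of elongation and termination factors 3 fell and 6 rose (median -0.04), with 3 and 3 at their 12 ends. The falls at these ends, at Eef1b2, Eef1d and Eef1g, were called under each of the 3 other scalings. The rises at another end of Eef1b2 (0.175) and at Eef2k (0.119) were called under none. That at Etf1 (0.174) was also called higher with equal totals, but turned to -0.105 with quantile scaling (adjusted p = 0.00146).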

How the data were processed

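ATAC-seq of 9 libraries of D2A1-d cells, 3 per group, was used. Per the submitters' processing notes, the authors used Trim Galore, BWA, MACS2 and featureCounts from Subread with mm10 (GRCm38). No source used here gives their versions, duplicate removal or any transposase offset. The file holds a deposited signal per peak, which the authors call DESeq2-normalized: reads over a size factor per library. Dividing by the smallest step in each library gave whole numbers, within 0.01, for 100% of values and size factors of 0.799 to 1.22, and the read numbers given rest on this inferred step, since no value was as low as 1 read (the lowest were 2 or 3). Header names stood 1 column left of the values and were matched to the labels by name. Peak coordinates are printed as the file has them, with a base of 0 or 1 unstated.

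Values were put on the scale log2(value + 1) and fitted with limma's trend (version 3.58.1, in R 4.3.3 with the data.table package, version 1.17.8) for the 75930 peaks whose mean was at least 10. This removed 6 peaks, none of them among the 125. Contrasts set each hairpin and their mean against NTC, and #4 against #2. Tests were two-sided, with Benjamini-Hochberg adjustment over all peaks and a threshold of 0.05. The fit was tested on simulated data. Genes and their ends come from RefSeq GRCm38.p6.

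The members, gene lists and tests were chosen with earlier results of these data known. The rule named the 10 largest and 10 smallest changes in the mean of both hairpins among called peaks with a mean of at least 50 and no overlap, the strongest gene-end peak of each of 7 roles, up to 4 peaks each way between hairpins, and the 2 faintest peaks. Other peaks named, the start-site class and its background, the genes whose sequence is shown and the use of 1 promoter per gene for motifs were chosen after the values were seen. Alternatives were 3 scalings, other pseudocounts and filters, no trend, quality weights, fits to only the groups of the contrast, the replicate block, a window of 500 bases, each library left out, and, chosen after seeing the data, voom weights. An edgeR count model, planned only if the file held raw counts, was not run, and neither was DESeq2.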

Additional observations from a re-analysis of the deposited data

Results flagged for a closer look

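The hairpins differed from each other at 19 of the 125 peaks, by the limma contrast of #4 against #2 (adjusted p under 0.05), each value here a log2 fold change of #4 against #2. Of all peaks, 21.5% differed in this way. Without each single library in turn, 8 of the 19 stayed called in every fit: those of Eif3h, the raised body peak of Eif4g3, and 1 peak each of Eif4a1, Eif4e, Eif4e2, Eif4h and Eif6.

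At Eif3h (chromosome 15, 51798738 to 51799239) the value was 0.59 and at the next peak named in that gene, 51823040 to 51823541, it was -0.28. In Eif4g3 it was -0.42 at the raised body peak and at a body peak nearer the middle of the gene, and 0.30 further on. The weak body peaks of Eif4e and Eif4h were at -0.71 each and that of Eif4ebp1 at 0.54, with 49.52 to 102.6 normalized counts per library at the latter. The gene-body peaks of Eif6, Eif5b and Eif2d were at -0.47, 0.31 and 0.21.

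At gene ends the value was 0.13 at Eif2a, 0.14 at Eif2s2, 0.17 at Eif1ad and 0.22 at Eif2b1, where in each case #4 was nearer to NTC than #2. That of Eif2a was not called under quantile scaling or cyclic loess (0.10 in both). The value was -0.19 at the far end of Eif3f, -0.39 at the far end of Eif4a2 and -0.31 at the end of Eif4a1 shared with Cd68. A second peak of Eif4e2 was at -0.42.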

How the results depend on the processing

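The counts of lowered and raised peaks stayed within 1.5 times of those reported under the other pseudocounts and filters, quality weights, fits to only the groups of the contrast, voom weights and the window of 500 bases. With equal totals, 51 peaks were lower with #2, 54 were lower and 13 higher in the mean of both hairpins, and 11 were higher with #4. The shares of all peaks there were 29.1% lower with #2, 27.7% lower and 15.9% higher in the mean, and 12.3% higher with #4. Without the trend, 10 were higher and 15 lower with #4, and 2 were higher in #4 against #2. The cause was not tested. Leaving out 1 library at a time gave 16 to 21 higher and 26 to 41 lower in the mean, 17 to 20 and 29 to 39 with #2, 12 to 20 and 21 to 33 with #4, and 3 to 10 and 8 to 13 in #4 against #2. Quantile scaling and cyclic loess turned Eif2b4 with #4 to -0.15 and -0.12, Eif4a1 with #4 to -0.18 and -0.14, and Eif5 with #4 to -0.13 and -0.10. Quantile scaling turned Eif5 in the mean to -0.11 and Eif4g2 to -0.10 with #2, -0.021 with #4 and -0.059 in the mean, where cyclic loess gave -0.018. Replicate numbers did not pair the libraries, since deviations of same-numbered libraries correlated at r = -0.08 to 0.03. With a replicate block, 20 peaks were higher and 34 lower in the mean, 18 and 32 with #2, 19 and 28 with #4, and 7 and 10 in #4 against #2. The edgeR fit, planned only for raw counts, and DESeq2 were not run, since the deposited values are normalized. Voom weights on reads worked out from the values took their place. Depth was lowest at the faint peaks, with 14 reads at the least in a library, and what could be detected there was not tested.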
